A study of Saccharomyces cerevisiae with 16 samples.

Results

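Budding yeast carrying a human locus on chromosome XI was compared with yeast carrying the same locus with its base order reversed, using peaks of histone H3 trimethylated at lysine 4 (H3K4me3). Members were chosen by their titles: the 2 H3K4me3 libraries of the strain with synHPRT1R integrated on chrXI and the 2 of the strain with synHPRT1 integrated there, which makes 4 of the 16 libraries in the series and 4 of its 8 H3K4me3 libraries. synHPRT1 is a synthetic copy of the human HPRT1 locus, and synHPRT1R is the same sequence written from its last base to its first without complementing it. Base composition and runs of identical bases are therefore shared, while coding content and most motifs are not. Words that read the same in both directions are kept, and the number of CG dinucleotides changes. The comparison describes how far the places of the mark on foreign DNA are kept when the base order is reversed. It cannot fully separate composition from sequence.

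All 4 libraries came from the BY4741 background (haploid, with HIS3, LEU2, MET17 and URA3 inactivated), grown in rich YPD medium at 30 °C, diluted to an optical density of 0.1 and grown for 6 h to about 0.6. The groups differed by genotype only: synHPRT1R integrated or synHPRT1 integrated at the same place, each sampled as 2 independent clones of a single engineered strain. A clone of the strain is the only replicate, so differences between the groups may include differences between the 2 strain constructions, which cannot be told apart from the order of the locus. Marked nuclei were profiled by CUT&RUN, in which an antibody directs a nuclease to cut out the DNA of marked nucleosomes, and the values are the authors' peak lists. Fold enrichment is the number of fragments at the summit of a peak over the background expected there, and q is the peak caller's adjusted p. Fewer cells carrying the mark and less mark per cell cannot be told apart in such a population.

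In yeast, H3K4me3 is laid down by Set1, the catalytic subunit of the COMPASS complex, which travels with RNA polymerase II as it starts to transcribe. The mark therefore sits over the first nucleosomes of transcribed genes, where it is read by chromatin-modifying complexes and removed by the demethylase Jhd2. A human locus has no promoters that evolved for yeast, and peaks on it are read here only as places where the mark was listed. Transcription was not examined.

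The lists held 4021 and 3881 peaks for synHPRT1R replicates 1 and 2, and 3794 and 3642 for synHPRT1. The synHPRT1R lists were longer and their nuclear peaks narrower, with median widths of 593 and 623 bp against 664 and 699 bp. Median fold enrichment over nuclear peaks was 2.16 and 2.21 in synHPRT1R and 2.36 and 2.26 in synHPRT1, so that both measures were apart between the groups before any gene was considered. Between 83.4 and 84.9% of nuclear summits lay within 200 bp before to 800 bp after an annotated gene start. The genes ACT1 (actin), TDH3 and PGK1 (glycolytic enzymes) had a peak over the start in all 4 libraries. For ACT1 and TDH3 the summit lay at the start in all but synHPRT1 replicate 2, and for PGK1 in synHPRT1R replicate 2 only. LEU2, URA3 and MET17 had none in any, and the peak over the start of HIS3 had its summit at a neighbouring gene. Of 6 genes expressed in a cells, 5 had a peak over the start in at least 1 library, and of 3 alpha-specific genes 0 had one. Of these 5 only STE6 had a summit at its start, and ASG7 had a peak in synHPRT1 replicate 1 only. Summits were read at about 76.2 to 83.3 background fragments per library, so values as low as the 1.33 listed at MCD4 were close to the limit of what the caller could list.

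The synthetic sequence is shown first, since the comparison turns on its letters. Stretches of 120 bases are given from the starts of the segments from which synHPRT1R was assembled, each as it reads 5′ to 3′ in synHPRT1R and then as the same letters read in synHPRT1. Positions count along each locus contig from its first base and assume that the lox site comes first. Capitals mark CG dinucleotides, the word that reversal makes out of GC and destroys in turn.

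The first stretch, at 112 to 231 of synHPRT1R and 100505 to 100624 of synHPRT1, lay wholly under a peak region of synHPRT1R and outside those of synHPRT1.
synHPRT1R order, segment 1: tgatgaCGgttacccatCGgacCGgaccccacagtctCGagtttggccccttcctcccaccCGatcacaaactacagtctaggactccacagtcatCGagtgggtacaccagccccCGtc
synHPRT1 order, segment 1: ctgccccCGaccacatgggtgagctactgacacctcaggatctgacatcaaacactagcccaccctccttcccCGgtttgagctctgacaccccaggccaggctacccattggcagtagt

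The second, at 69758 to 69877 of synHPRT1R and 30859 to 30978 of synHPRT1, was under peak regions of both orders and was the richest in G and C, at 76.7%.
synHPRT1R order, segment 20: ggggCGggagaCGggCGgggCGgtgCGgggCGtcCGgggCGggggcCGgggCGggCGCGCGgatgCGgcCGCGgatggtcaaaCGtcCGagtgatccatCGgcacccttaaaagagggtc
synHPRT1 order, segment 20: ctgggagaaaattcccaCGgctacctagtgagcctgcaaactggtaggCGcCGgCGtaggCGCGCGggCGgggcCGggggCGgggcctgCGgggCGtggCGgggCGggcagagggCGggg

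The third, at 58594 to 58713 of synHPRT1R and 42023 to 42142 of synHPRT1, was under none in either order and held 21.7% G and C.
synHPRT1R order, segment 17: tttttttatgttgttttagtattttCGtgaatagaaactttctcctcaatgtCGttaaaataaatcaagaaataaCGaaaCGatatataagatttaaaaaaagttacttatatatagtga
synHPRT1 order, segment 17: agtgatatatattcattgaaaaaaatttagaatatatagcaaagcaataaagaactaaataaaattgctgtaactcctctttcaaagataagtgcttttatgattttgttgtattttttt

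Both loci carried peaks along their whole length, in similar number. The synHPRT1R libraries had 52 and 50 locus peaks and the synHPRT1 libraries 50 and 49. Joining touching peaks and keeping regions with a peak in both replicates left 43 regions on synHPRT1R, covering 31.8% of the locus, and 44 on synHPRT1, covering 33.9%. The median width was 625 bp in synHPRT1R and 645 bp in synHPRT1. Heights repeated well between clones, with a correlation of log2 fold enrichment between replicates of r = 0.88 over the synHPRT1R regions and r = 0.87 over the synHPRT1 regions.

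Locus peaks were lower than host peaks in every library. The median log2 fold enrichment of locus peaks minus that of nuclear peaks was -0.21 and -0.32 in synHPRT1R replicates 1 and 2. It was -0.37 and -0.35 in synHPRT1. The groups did not overlap, and the means differed by 0.10 (synHPRT1R -0.26 ± 0.08, synHPRT1 -0.36 ± 0.01, SD, n = 2 each, two-sided exact permutation p = 0.33, which is the smallest p that 2 against 2 libraries allow). Joining peaks within 500 bp turned the difference to -0.020, so no direction is given for the height of the locus as a whole.

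Peak positions were partly kept when the sequence was reversed. After mirroring, 25 of the 43 synHPRT1R summits (58.1%) fell in a synHPRT1 region, against 33.9% of the locus under such regions. In the other direction 24 of 44 synHPRT1 summits (54.5%) fell in a mirrored synHPRT1R region, against 31.8% of the locus. Without mirroring, when equal distances from the left end were compared, the counts were 14 of 43 (32.6%) and 19 of 44 (43.2%). Regions are neighbours on 1 molecule and not replicates, so these shares are given as a description with no test. Requiring the 2 summits to lie within 250 bp lowered the shares to 34.9% and 34.1%. The shares of the locus under regions are no baseline for that rule, and none was computed for it. In bases, 18.2% of the locus was under regions of both orders, 13.5% under synHPRT1R only, 15.7% under synHPRT1 only and 52.5% under neither.

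**Figure D1:**
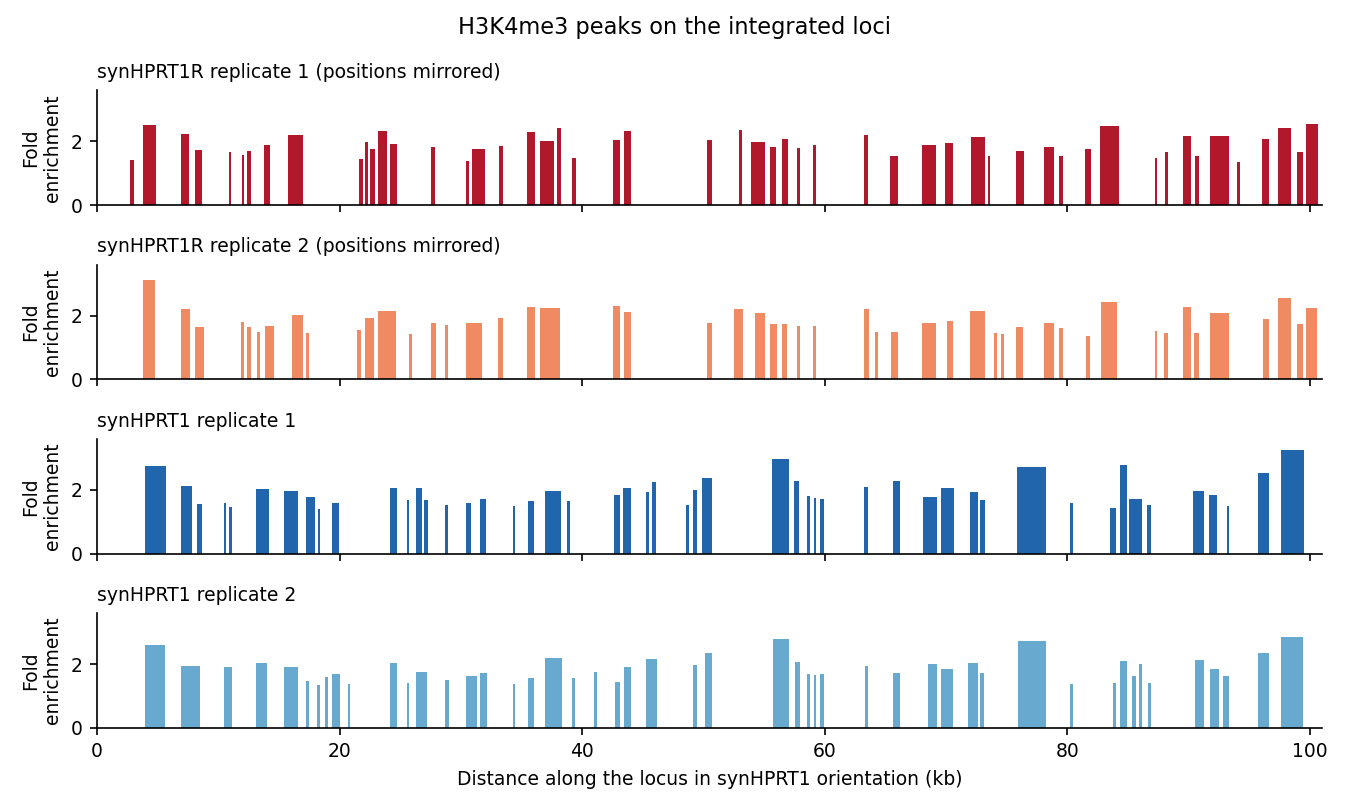
H3K4me3 peaks of each library along the integrated locus, with synHPRT1R positions mirrored so that the same letters share a horizontal position (kb). Bar width is the width of the peak and bar height its fold enrichment. The peak near 4 kb is present in all 4 libraries, while the bar beyond 100 kb is present in the synHPRT1R libraries only.

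From 28 synHPRT1 and 27 synHPRT1R regions, 30 pairs with a summit inside the partner's region could be formed. The median distance between paired summits was 223 bp, and 15 of the 30 pairs lay within 250 bp. The closest strong pair joined synHPRT1 3905 to 5688 with synHPRT1R 95850 to 96945, whose summits were 3 bp apart after mirroring. Fold enrichment there was 2.53 and 3.11 in synHPRT1R and 2.76 and 2.61 in synHPRT1, and the groups overlapped.

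Other strong pairs differed in height. At synHPRT1 55681 to 57022 and synHPRT1R 43789 to 44285 the summits were 27 bp apart, and fold enrichment was 2.08 and 1.74 in synHPRT1R and 2.98 and 2.78 in synHPRT1. The right-hand end of synHPRT1, at 97571 to 99495, reached 3.25 and 2.86 and was the highest region of that locus. Its mirror image was divided in synHPRT1R into a region at 2265 to 3414, with 2.42 and 2.55 and a summit 1345 bp away after mirroring, and a lower one at 1306 to 1772, with 1.66 and 1.73 and a summit 62 bp away. In each of these cases synHPRT1 was the higher in both clones.

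The reverse order of heights was also found. At synHPRT1 36964 to 38351 and synHPRT1R 62474 to 64257 fold enrichment was 2.42 and 2.24 in synHPRT1R and 1.97 and 2.19 in synHPRT1. At synHPRT1 95693 to 96602 and synHPRT1R 4134 to 4657 it was 2.07 and 1.89 in synHPRT1R and 2.53 and 2.34 in synHPRT1, higher in synHPRT1 again. Over the 30 pairs the heights in the 2 orders had a correlation of r = -0.05 on the log2 scale, beside the r of 0.87 and 0.88 between clones of 1 order. The pairs share letters, a library per group and in some cases a region, and no p is given.

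**Figure D2:**
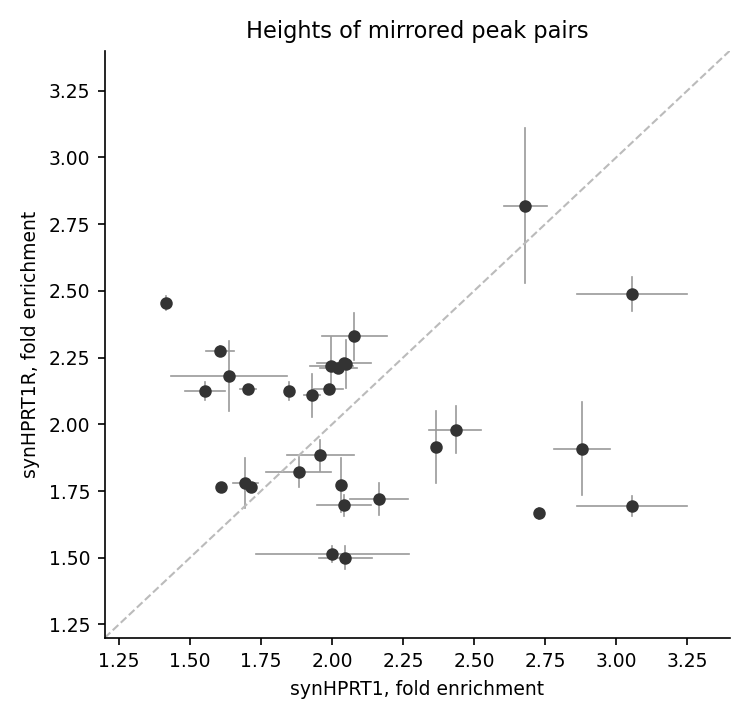
Mean fold enrichment of each mirrored pair of regions in synHPRT1 (horizontal) and synHPRT1R (vertical), with thin lines joining the values of replicates 1 and 2 and a dashed line of equality. The 30 pairs scatter on both sides of the line, with r = -0.05.

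In each locus 16 regions had no partner. Of these, 9 in synHPRT1R and 10 in synHPRT1 lay more than 500 bp from the nearest region of the other order. For 14 of the 16 in synHPRT1R and 12 of the 16 in synHPRT1, no peak of either library of the other order overlapped the place. The highest of those in synHPRT1R was the region at 112 to 1059, whose first bases are the segment 1 stretch printed above, with fold enrichment of 2.54 and 2.24 and none listed in synHPRT1. The next synHPRT1R regions were at 47525 to 48200 (2.35 and 2.21), at 10508 to 11247 (2.16 and 2.27) and at 45678 to 46854 (1.97 and 2.09). The highest unpaired synHPRT1 regions were at 84319 to 84890 (2.80 and 2.1), at 45217 to 46138 (2.26 and 2.18), at 49153 to 49450 (2.01 and 1.96) and at 26283 to 27247 (2.06 and 1.77). Some of these lay close to a region of the other order. The gap was 181 bp for synHPRT1R 112 to 1059, 134 bp for synHPRT1R 10508 to 11247 and 100 bp for synHPRT1 84319 to 84890. For the other regions named here it was 313 to 1802 bp. Unpaired regions were a little lower than paired ones, with medians of 1.79 against 1.98 in synHPRT1R and 1.67 against 2.00 in synHPRT1.

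The difference was spread unevenly along the locus. In synHPRT1 orientation, 10 to 20 kb was under peaks for 24.5 and 27.3% of its bases in synHPRT1R and for 43.7 and 40.6% in synHPRT1. At 40 to 50 kb the shares were 11.9 and 11.7% in synHPRT1R against 24.6 and 24.6% in synHPRT1. At 20 to 30 kb the order turned, with 25.5 and 33.7% against 17.3 and 21.5%. The last stretch, from 100 kb to the end at 100735, is much shorter than the 10-kb bins. It was under peaks for 84.9 and 80.5% in synHPRT1R and for 0 and 0% in synHPRT1. Those shares came from 1 peak in each synHPRT1R library, that of the unpaired region at 112 to 1059. The bins were not tested.

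Sequence could be read for the first 399 bases of 27 of the 28 segments, which are spaced along synHPRT1R and were not chosen by their signal. Of these 27 windows, 8 were at least 50% under synHPRT1R regions and 16 were clear of them. The covered windows were richer in G and C, with a median of 47.5% (42.9 to 69.9%) against 37.5% (25.3 to 47.6%). A run of 6 or more A or of 6 or more T was found in 5 of the 8 covered windows and in 14 of the 16 clear ones. For synHPRT1 the content of G and C had no such order, with a median of 42.9% over the 5 covered windows and 43.4% over the 13 clear ones, while such runs were found in 3 of the 5 covered and 10 of the 13 clear windows.

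Of the 27 windows, 2 were at least 50% covered in both orders, 5 were so covered in synHPRT1R with no cover in synHPRT1, 2 the other way round, and 8 were clear in both.

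The host sequence next to the insertion carried a peak that differed in height between the orders. Matching the homology arms of the landing pad to sacCer3 placed the left arm at chrXI:146136-146350 and the right arm at chrXI:146508-146829, so that 157 bases were replaced between PIR3 and YKL162C. The paper gives the site as the gene YKL162C-A, which is not among the genes used here. The sequence around the summits to the left of the insertion (chrXI:146001-146117, plus strand) is printed with the span of the 4 summits in capitals, followed by the replaced bases (chrXI:146351-146507, plus strand).
Left of the insertion: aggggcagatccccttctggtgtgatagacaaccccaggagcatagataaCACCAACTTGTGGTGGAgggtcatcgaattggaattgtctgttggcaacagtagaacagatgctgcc
Replaced: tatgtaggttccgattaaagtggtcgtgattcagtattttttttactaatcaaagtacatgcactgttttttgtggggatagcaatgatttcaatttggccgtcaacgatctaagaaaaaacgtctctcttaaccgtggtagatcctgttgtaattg

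At the left summit fold enrichment was 2.02 and 2.22 in synHPRT1R replicates 1 and 2. It was 2.81 and 2.84 in synHPRT1. Both synHPRT1 values were above both synHPRT1R values. The summits lay within 146051 to 146067 in all 4 libraries, in sequence with no protein-coding gene in the annotation used. The orientation of the loci on chromosome XI is not given, so which locus end adjoins this peak is not known. None of the 4 libraries that carry the loci on a yeast artificial chromosome (YAC), with chromosome XI uninterrupted, had a peak there. The YAC strains also grew in another medium, so insertion and medium cannot be told apart in that contrast.

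On the same side, PIR3, a cell wall protein of the PIR family, had a peak over the end of its coding region at 1.70 and 1.71 in the synHPRT1R libraries (144765 to 145459 and 144740 to 145510). Neither synHPRT1 library and no YAC library had a peak there. The values were low, with -log10 q of 7.31 and 8.05. Genes of the PIR family share repeats, so reads may be divided among them. Upstream of PIR3 all 4 libraries had a weak peak, at 1.54 and 1.46 in synHPRT1R and 1.46 and 1.72 in synHPRT1.

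To the right, no library had a peak before the ELF1 and APE2 region, which began 6705 bases from the arm. ELF1 encodes a transcription elongation factor, and the region reached 2.75 and 3.29 in synHPRT1R and 2.99 and 2.91 in synHPRT1, with overlapping groups. Of the 8 genes whose start lay within 10 kb of the insertion, PIR1, YKL162C and KDX1 had no peak at the start in any library. MCD4, an enzyme of GPI anchor synthesis, had 1.33 in synHPRT1R replicate 2 and 1.44 and 1.38 in synHPRT1. None of the 8 had a value in all 4 libraries by summit, so none entered the gene test. Within 50 kb of the insertion the libraries had 37 and 39 peaks in synHPRT1R and 35 and 36 in synHPRT1 (means 38 ± 1.41 and 35.5 ± 0.707, SD, n = 2 each, two-sided exact permutation p = 0.33). The longer synHPRT1R lists move with that count, and their part in it was not tested.

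**Figure D3:**
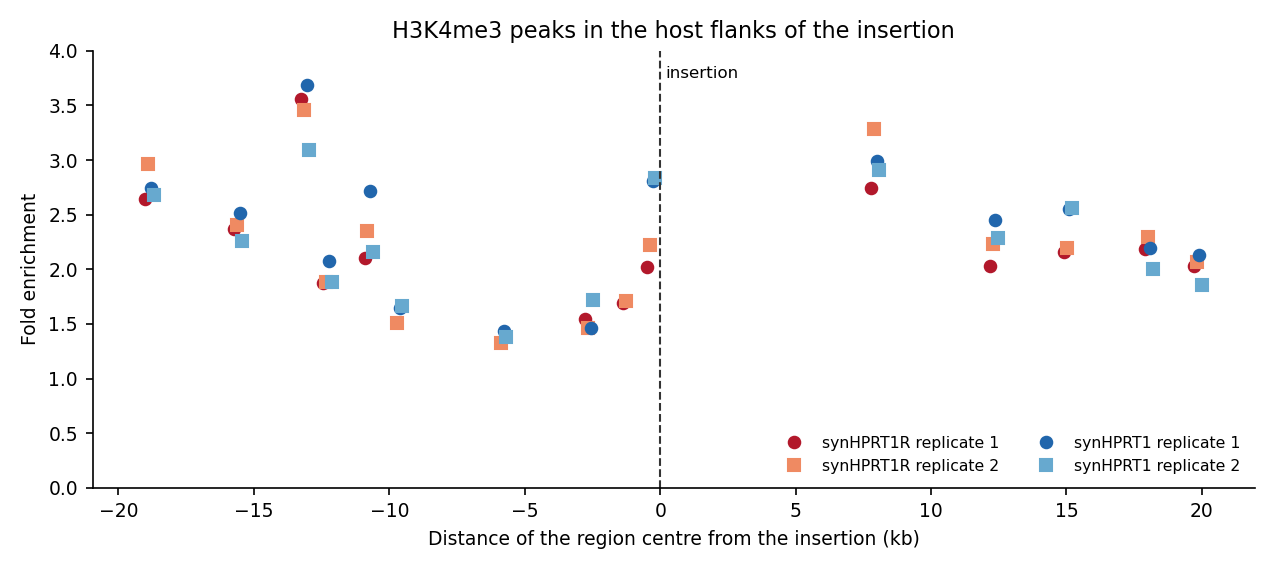
Fold enrichment of H3K4me3 regions within 20 kb of the insertion against the distance of the region from it (kb, negative to the left). Libraries of a region are drawn side by side. The region nearest on the left is lower in the 2 synHPRT1R libraries (2.02 and 2.22) than in the 2 synHPRT1 libraries (2.81 and 2.84).

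Across the rest of the genome few gene starts differed. A gene was tested where all 4 libraries had a summit in its start window, which held for 2492 of 6002 protein-coding genes. The limma fit on median-centred log2 fold enrichment, with Benjamini-Hochberg adjustment over the 2492 genes, called 5 at an adjusted p under 0.05, which is 0.201% of those tested, 2 higher in synHPRT1R (0.0803%) and 3 lower (0.12%). At an unadjusted p under 0.05 there were 322. Differences were small, with 97.3% of genes under 0.3 on the log2 scale and a median standard error of 0.10. Without centring 37 genes were called, 2 higher and 35 lower, in place of 2 and 3. The count was 8 without synHPRT1R replicate 1, 36 without synHPRT1R replicate 2, 10 without synHPRT1 replicate 1 and 3 without synHPRT1 replicate 2. With 1 library left in a group, the spread comes from the other group, and the lone library is assumed to vary like it.

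HSP150, a secreted cell wall glycoprotein of the PIR family that is induced by heat, had the highest rise. Fold enrichment at its start (YJL159W, chromosome X, 120449 to 121690) was 2.02 and 2.26 in synHPRT1R and 1.44 and 1.61 in synHPRT1. The summits spanned 339 bp, with synHPRT1R replicate 1 at 120932 and the other libraries between 120593 and 120696. The groups did not overlap, and the centred difference was 0.57 on the log2 scale (SE 0.10, 95% interval 0.36 to 0.77, limma adjusted p = 0.00396), a 1.48-fold ratio. Without synHPRT1 replicate 1 it was 0.44 (limma adjusted p = 0.0877, over a range of 6.44e-05 to 0.0877 in the 9 alternatives). The labels of synHPRT1 YAC replicate 2 disagree, since its source name gives synHPRT1R while its title and genotype give synHPRT1, and the title was followed in every comparison with the YAC strains. In those strains the values at HSP150 were 2.02 in the synHPRT1R library with a peak and 2.00 and 1.85 in the synHPRT1 libraries.

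YBR071W, a protein of unknown function, was also higher in synHPRT1R. Its values were 2.21 and 2.01 in synHPRT1R and 1.77 and 1.49 in synHPRT1, with no overlap. The difference was 0.46 (SE 0.10, limma adjusted p = 0.0354). It missed the threshold under 4 of 9 alternatives, 2 of them without synHPRT1R replicate 1 (0.37, limma adjusted p = 0.278) and without synHPRT1 replicate 2 (0.36, limma adjusted p = 0.239), over a range of 0.00398 to 0.278.

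Among the lower genes, YCL020W and YCL019W are the overlapping reading frames of a Ty2 retrotransposon and share a single peak. That peak was at 1.66 and 1.47 in synHPRT1R and 2.34 and 2.31 in synHPRT1. The groups were far apart, with a difference of -0.50 (SE 0.10, limma adjusted p = 0.0109). It missed the threshold without synHPRT1R replicate 2 (-0.40, limma adjusted p = 0.0774), without synHPRT1 replicate 2 (-0.48, limma adjusted p = 0.0516) and with peaks overlapping the gene (limma adjusted p = 0.0686). Ty2 elements are present in several near-identical copies among which the aligner must choose, so the value belongs to this copy only with that reservation. YFL002W-B, from a Ty2 element on chromosome VI, went the same way without passing the test, at 1.89 and 1.71 in synHPRT1R and 2.59 and 2.35 in synHPRT1 (adjusted p = 0.0821 by limma). YDR210W-B and YDR210W-A, from a Ty2 element on chromosome IV and named after their values were seen, went the other way, also without passing it, at 2.01 and 1.93 in synHPRT1R and 1.8 and 1.62 in synHPRT1 (difference 0.28, adjusted p = 0.191 by limma).

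SOH1, a subunit of the Mediator complex, had the lowest adjusted p, and its call came from where the summit lay. Fold enrichment in its start window was 1.64 and 1.71 in synHPRT1R and 2.68 and 2.54 in synHPRT1 (difference -0.56, SE 0.10, limma adjusted p = 0.00353). The synHPRT1R summits belonged to a small peak beyond the end of the gene, at 270132 and 270068 on chromosome VII, and the synHPRT1 summits to the broad peak at its start, at 270722 and 270743. That broad peak was present in all 4 libraries from about 270397 to 272226, with 2.87 and 2.81 in synHPRT1R and 2.68 and 2.54 in synHPRT1, and in synHPRT1R its summit lay at 271916 and 271915. When any peak over the gene was used, the difference was 0.22, in the other direction (limma adjusted p = 0.38, against 2.65e-05 to 0.0297 in the other 8 alternatives). In 86.1% of tested genes the 4 summits lay within 250 bp of each other, and HSP150 was not among these.

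The genes next in size did not pass the test. On the higher side these were YAH1, the mitochondrial ferredoxin (difference 0.43), MTH1, a regulator of hexose transporter genes (0.43), ARD1, the catalytic subunit of an N-terminal acetyltransferase (0.41), and YAT1, a carnitine acetyltransferase (0.41), with limma adjusted p between 0.0611 and 0.0812. For YAH1 and MTH1 1 library set the size: without synHPRT1R replicate 1 the differences were 0.25 and 0.25, and without synHPRT1R replicate 2 they were 0.62 and 0.60, past the threshold (limma adjusted p = 0.000388 and 0.000653). On the lower side were VID30, a subunit of a ubiquitin ligase that degrades gluconeogenic enzymes (-0.40, limma adjusted p = 0.0812), and SUP45, the translation release factor (-0.38, limma adjusted p = 0.0821). The summits spanned 274 bp at YAH1 and 318 bp at MTH1. The genes next in size, and the called genes before them, were named from among those whose groups did not overlap after centring. Their lack of overlap is therefore no result, and 44.9% of all tested genes met that condition.

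**Figure D4:**
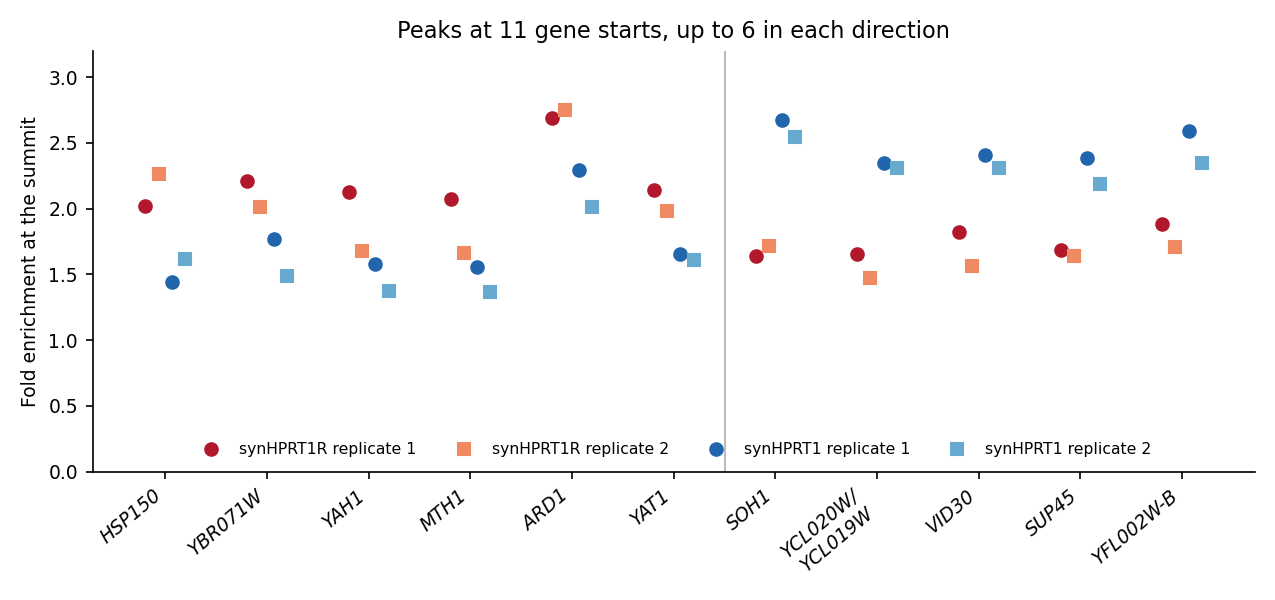
Fold enrichment of H3K4me3 at 11 gene starts, those with the largest differences among genes without overlap after centring, up to 6 in each direction, in each of the 4 libraries, with genes higher in synHPRT1R left of the line and lower ones right of it. HSP150 stands at 2.02 and 2.26 against 1.44 and 1.61, and SOH1 at 1.64 and 1.71 against 2.68 and 2.54.

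No glycolysis gene passed the test, and all tested differences were above 0. Of 16 genes of glycolysis and fermentation 9 were tested, and 0 passed the test in either direction by limma, with adjusted p between 0.174 and 0.528. Of the 9, 6 had an unadjusted limma p under 0.05, beside 322 of all 2492 tested genes. All 9 differences were above 0, from 0.15 to 0.32, with a median of 0.25, where the median of all tested genes was 0.00 and 12.2% of them were at 0.15 or more. The members with the largest differences are named here and were picked after those were seen. PDC1, pyruvate decarboxylase, was at 2.67 and 2.16 in synHPRT1R and 2.1 and 1.97 in synHPRT1. CDC19, pyruvate kinase, was at 1.68 and 2.06 against 1.64 and 1.51. ADH1, alcohol dehydrogenase, was at 3.02 and 2.98 against 2.75 and 2.52. ENO2, an enolase, was at 3.18 and 3.2 against 2.77 and 2.83. In all 9 tested genes the groups did not overlap after centring, and neither did 44.9% of all tested genes. Among members outside the test, by any peak over the start, ENO1 was at 2.164 and 2.122 against 2.227 and 2.131. TDH2 was at 2.539 and 2.565 against 2.657 and 2.408, and TDH3 at 2.372 and 2.18 against 2.326 and 2.357. TPI1 was at 2.766 and 2.558 against 2.621 and 2.482. FBA1 was at 2.667 and 2.328 against 2.325 and 2.282, and PGK1 at 3.164 and 3.228 against 3.147 and 2.98.

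The list kept a median of 0.17 without centring, with 9 of 9 above 0. In the YAC strains, which were not used in the comparison, 5 of these genes had values in all 4 libraries, and there the median difference of synHPRT1R minus synHPRT1 was -0.08, with 2 of 5 above 0. Without synHPRT1R YAC replicate 1 there were 8 such genes, with a median of 0.04 and 6 of 8 above 0, so no direction is given for the YAC strains. The synHPRT1R lists hold more and narrower peaks, as given above, and the part of that in the list was not tested.

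**Figure D5:**
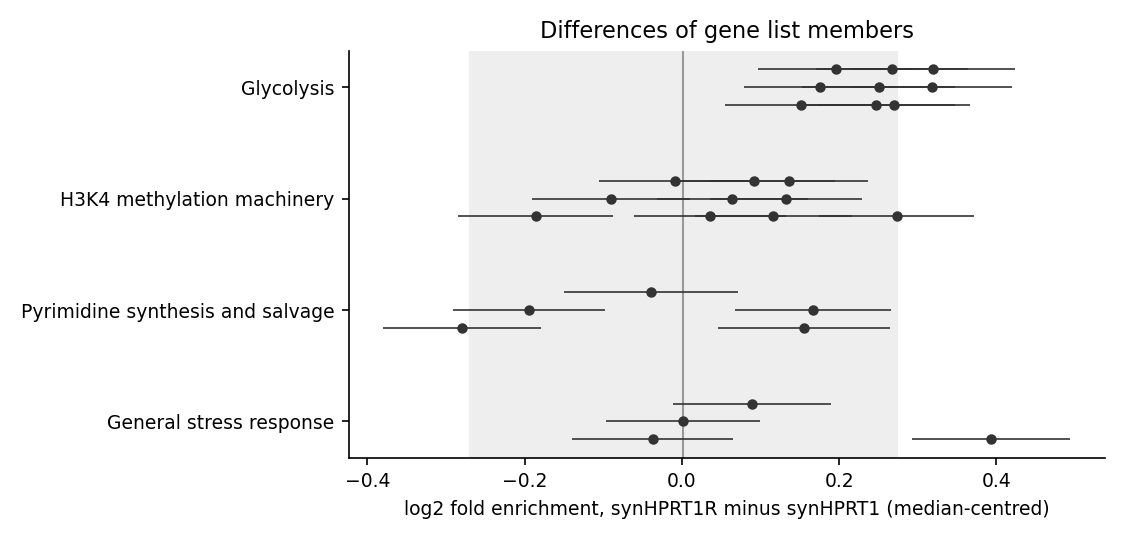
log2 fold enrichment of synHPRT1R minus synHPRT1, median-centred, for tested members of 4 gene lists. Points are genes, bars are standard errors from limma, the grey band spans the central 95% of all 2492 tested genes and the vertical line is their median. The 9 glycolysis genes lie between 0.15 and 0.32.

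In the other lists HSP150 was the only gene called. Of 17 genes of the H3K4 methylation machinery 10 were tested and 0 called, with a median of 0.08 and a range of -0.19 to 0.27. Among them SWD1, a COMPASS subunit, had 2.96 and 2.69 in synHPRT1R and 2.56 and 2.37 in synHPRT1, and SWD3, another, had 3.2 and 3.48 against 4.35 and 3.70. The gene for Set1 itself had a summit at its start in the synHPRT1R libraries only, at 2.72 and 3.07, but a peak lay over its start in all 4. Of 138 genes of cytosolic ribosomal proteins 61 were tested and 0 called, with a median of -0.00 and a range of -0.33 to 0.25.

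Of 20 general stress genes 4 were tested and 0 called. DDR48, a stress protein, was the highest of these, at 3.08 and 2.66 in synHPRT1R and 2.42 and 2.18 in synHPRT1 (difference 0.39, SE 0.10, limma adjusted p = 0.0821). Of 11 PIR and TIR cell wall genes 2 were tested, with a median of 0.32, HSP150, which is described above, and CIS3, at 2.61 and 2.80 against 2.94 and 2.52. Of 10 genes of pyrimidine synthesis and salvage 5 were tested and 0 called, with FUR4, the uracil permease, lowest at 1.86 and 1.64 against 2.2 and 2.27. Of 7 galactose genes GAL80, the repressor of the pathway, was the only one tested (0.18), and 6 had no peak at the start in any library. RPN4, a proteasome gene activator, differed by 0.07, and of CRZ1 and GSM1 neither was tested. Of 246 genes within 20 kb of a chromosome end 20 were tested and 0 called, with a median of 0.04.

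Genes with a summit at the start in both libraries of a group and in neither of the other numbered 187 for synHPRT1R (4.52% of the 4141 genes with a summit in any of the 4 libraries) and 91 for synHPRT1 (2.2%). Leaving out synHPRT1R replicate 1 or 2, or synHPRT1 replicate 1 or 2, loosens the rule and gave 292, 418, 438 and 293 for synHPRT1R and 203, 225, 202 and 202 for synHPRT1. With each list cut to its 3000 peaks of highest -log10 q, the counts were close, at 139 for synHPRT1R and 136 for synHPRT1. Many of these genes did have a peak in the other strain. For 172 of the 187 and 39 of the 91, a peak of the other strain lay over the start with its summit elsewhere. Some came as neighbours. VTS1, an RNA-binding protein, had summits in synHPRT1R (3.97 and 4.46), while the adjoining HAP5, a subunit of a transcription factor, had them in synHPRT1 (4.14 and 4.0). The mitochondrial polymerase gene MIP1 (3.82 and 3.62 in synHPRT1R) and VMA4, of the vacuolar ATPase (4.44 and 3.84 in synHPRT1), formed another such pair. DPH2, of diphthamide synthesis (3.38 and 3.73 in synHPRT1R), and ACP1, the mitochondrial acyl carrier protein (3.62 and 3.69 in synHPRT1), formed one more.

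Other genes with a summit in synHPRT1R only included SIN3, a subunit of a histone deacetylase complex (4.10 and 3.67), YBL081W (3.09 and 3.19), TAT2, a tryptophan permease (3.01 and 3.50), GLE1, an mRNA export factor (3.2 and 3.39), and DED1, an RNA helicase (2.96 and 3.02). In synHPRT1 only they included PML1, of mRNA retention (4.23 and 3.78), IDP1, isocitrate dehydrogenase (3.55 and 3.49), PHO85, a cyclin-dependent kinase (3.27 and 3.21), MRM1, a ribosomal RNA methyltransferase (3.21 and 2.88), and ATS1 (3.64 and 3.11). All of these had a peak of the other strain over the start.

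Counting any peak over the start window instead of summits turned the direction, a rule added after the data were seen: 25 genes were then marked in synHPRT1R only (0.493% of 5075) and 85 in synHPRT1 only (1.67%). No direction is therefore given for the number of genes marked in a single strain. Those lists held weaker peaks, with a median -log10 q of 6.50 and 10.1.

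Many of these genes were reached by the edge of a peak that the other strain also had. For 9 of the 25 and 27 of the 85, the highest peak over the start overlapped a peak of the other strain in at least 1 library. Among them were YAR009C, whose peak was that of the neighbouring Ty reading frame YAR010C (3.87 and 3.48 in synHPRT1R, 4.11 and 3.97 in synHPRT1), and DHH1, whose peak was that of STE7 (2.72 and 2.64 in synHPRT1R, 2.84 and 2.70 in synHPRT1).

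A peak of their own, overlapping none of the other strain, was present in both libraries for 17 of the 25 and 59 of the 85. SEN15, of the tRNA splicing endonuclease, had 1.94 and 2.13 in synHPRT1R only, and CTK2, of a kinase complex that phosphorylates RNA polymerase II, had 1.91 and 1.84. In synHPRT1 only, NUP159, of the nuclear pore, had 2.80 and 2.49, SHO1, an osmosensor, had 2.32 and 2.44, and IFM1, a mitochondrial translation initiation factor, had 2.41 and 2.27. These 5 were named after their values were seen.

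Few of these absences recurred in the YAC strains. Of the 25 genes marked in synHPRT1R only, 1 had the same pattern over the 4 YAC libraries and 1 the opposite, and of the 85 marked in synHPRT1 only the counts were 0 and 5.

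Heights were compared in the same way. Over the 1918 genes with a value in all 8 libraries, the difference of synHPRT1R minus synHPRT1 had the same sign in the integrated and the YAC strains for 40.5%, with r = -0.25 across genes, which are not independent replicates. Without synHPRT1R YAC replicate 1, 47.0% of 2199 genes had the same sign, with r = -0.06. The test of the interaction between order and context by limma called 0 of 1918 genes, with 215 at an unadjusted p under 0.05 and a lowest adjusted p of 0.367. The YAC strains grew in another medium, so context and medium cannot be told apart there.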

How the data were processed

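The authors aligned CUT&RUN read pairs with Bowtie2 2.2.9 to sacCer3 with the synthetic locus as a contig, and called peaks in each library on its own with MACS2 2.1.0, with no control library named (SAMtools 1.9, deepTools 3.5.0 and bcl2fastq 2.20 are also in the submitters' processing notes). Each deposited list gives, as the authors made them, a summit position, its fold enrichment (a ratio), and −log10 of its p-value and of its q-value. A background taken from the same library can hide or split peaks. IgG libraries were not analysed here. Read depth is not given in the lists. The number of fragments at summits, solved from fold enrichment and p, gave a background of 76.2 to 83.3 fragments.

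A gene's value was the highest fold enrichment with its summit from 200 bp before to 800 bp after the gene start in the RefSeq annotation of sacCer3. log2 values were centred on each library's median and fitted with limma 3.58.1 (R 4.3.3), 2 against 2 libraries, with Benjamini-Hochberg adjustment, and the fit was tested on simulated data. P-values measure the spread between 2 clones of a strain. Single values used a two-sided exact permutation test. Locus positions of synHPRT1R were mirrored on the 100735-bp contig. Other steps used Python 3.11.15 with numpy 2.4.6, pandas 2.3.3 and scipy 1.17.1. Genes named in the text are the 8 within 10 kb of the insertion. Also named were up to 6 in each direction with the largest difference and no overlap, and up to 8 in each direction with a summit in a single locus. All markers, up to 4 members of a list, and the highest pairs and unpaired regions were added. List members were to be named by level. Those of glycolysis were named by the size of their difference instead, and other members and a few other genes after their values were seen. The members and lists were chosen with earlier results of these data known. Sequences of segments come from the study's design table, some of them not reported here, and the host sequence from the RefSeq copy of sacCer3. Alternatives covered centring, normalisation, the replicate block, peak strength, assignment to genes, merging and leaving out each library.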

Additional observations from a re-analysis of the deposited data

Results flagged for a closer look

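Peaks on mitochondrial DNA, which has no histones, were listed in all 4 libraries and entered no comparison. Their number was 15 and 18 in synHPRT1R replicates 1 and 2, and 19 and 20 in synHPRT1 replicates 1 and 2. The IgG libraries were not analysed here.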

How the results depend on the processing

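Called genes were 5 of 2492. The count was 37 without centring, 3 at a -log10 q of at least 10 (of 1909 genes, none of the 5 among them), 32 with peaks overlapping the gene, 0 with merged peak regions (386 at an unadjusted p under 0.05 by limma), 4 with quantile normalisation and 5 with summit fragments over background. Leaving out a library gave 3 to 36. With the replicate block 24 were called, the 5 included. The numbers did not pair the samples, since the deviations of same-numbered libraries had a correlation of 0.01. SOH1 reversed to 0.22 with peaks overlapping the gene, and the other 11 of the 12 genes tested by name kept their direction wherever they had a value. Genes marked in synHPRT1R only were 187, then 26 with peaks overlapping the gene, 25 with any peak over the start window (chosen after seeing the data), and 292 to 438 without a library. For synHPRT1 only they were 91, and 202 to 225 without a library. The gene overlap rule gave 83 there, so that the direction turned. The excess of flank peaks in synHPRT1R kept its sign under every alternative, at 1.5 to 3.5 without a library and 2.5 with all, but fell to 0.5 (exact permutation p = 1) within 20 kb, at a -log10 q of at least 10 and with peaks merged. The locus height difference was -0.020 with peaks within 500 bp merged, and 0.04 to 0.15 without a library. Mirrored shares were 34.9% (synHPRT1R) and 34.1% (synHPRT1) with summits within 250 bp, 32.6% for synHPRT1R without mirroring, and 51.2 to 60.0% and 49.0 to 54.5% without a library.

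Read depth and mapping of repeats limit the values at Ty elements and PIR genes.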
